A study of Mus musculus with 7 samples.

Results

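A set of 3 lipid guidance systems that place lymphocytes in lymph nodes were examined in follicular dendritic cells (FDCs), through 10 genes chosen by symbol. They comprise the lysophosphatidic acid (LPA) genes Enpp2, Plpp1 and Plpp3, the sphingosine 1-phosphate (S1P) genes Sphk1, Spns2, Sgpl1 and S1pr1, and the oxysterol genes Ch25h, Cyp7b1 and Hsd3b7. Each of the 10 matched 1 of the 21176 genes in the table. FDCs are the stromal network of B-cell follicles and display antigen to B cells. They were sorted from popliteal lymph nodes of male mice aged 8 to 12 weeks that had not been immunized. One group was wild type (WT, 4 samples) and the other lacked the neurotrophin receptor gene Ngfr (Ngfr KO, 3 samples). Every sample pooled nodes from more than 1 animal, and per the design text the samples were independent. The labels give neither the strain nor the way the Ngfr allele was made, and whether the loss was confined to FDCs is not given in the sources used here.

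Autotaxin, the product of Enpp2, is a secreted enzyme that makes LPA from lysophosphatidylcholine, and LPA promotes lymphocyte movement into and within lymph nodes. Lipid phosphate phosphatases such as those encoded by Plpp1 and Plpp3 remove the phosphate from LPA and S1P at the cell surface. S1P is made by sphingosine kinases, exported by SPNS2 and destroyed by the lyase encoded by Sgpl1, and lymphocytes sense its gradient through S1PR1 when they leave a node. CH25H and CYP7B1 act one after the other to make a dihydroxylated cholesterol that attracts activated B cells through the receptor GPR183, and HSD3B7 degrades that ligand.

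Values are read counts per gene scaled by the trimmed mean of M values (TMM) and are not divided by gene length. Whole reads recovered from them numbered 17244925 to 18873542 in WT libraries and 20741770 to 21538400 in Ngfr KO libraries, so every Ngfr KO library was deeper. With reads thinned to the smallest total, 8 of the 10 genes were called, as without thinning, beside 34.2% of all tested genes. Thinning kept the scaling of each library and changed the values little, so it cannot show what part depth had. That part was not tested. Ngfr itself had values of 0.377, 0.677, 1.30 and 1.14 in WT replicates 1 to 4 and of 0.305, 0.353 and 0.184 in Ngfr KO replicates 1 to 3. The groups did not overlap, as for 18.3% of tested genes in this direction, but WT replicate 1 lay close to Ngfr KO replicate 2. Ngfr was too low for the limma test. edgeR on the recovered reads did not call it (log2 change -1.55, adjusted p = 0.0574), and DESeq2 did (adjusted p = 0.0132). The defining FDC markers were present in all libraries, and their summed value ranged from 1773 to 4989 in WT libraries, against 7671 to 10217 in Ngfr KO libraries. Of 16 FDC markers tested, 13 rose in Ngfr KO and none fell, with a median log2 change of 1.36. All 14 blood endothelial markers that were tested fell, with a median of -1.35, and their summed value went from 156 to 202 in WT down to 37.3 to 68.0 in Ngfr KO. Lymphatic endothelial markers behaved alike: 6 of 8 tested fell, none rose, and the WT sums of 107 to 242 compared with Ngfr KO sums of 23.4 to 97.7. Sums overlapped between the genotypes for markers of high endothelial venules (104 to 231 in WT against 147 to 643 in Ngfr KO), fibroblastic reticular cells (57.6 to 160.3 and 108 to 135), pericytes (20.9 to 55.3 and 42.4 to 71.3), B cells (17.1 to 29.1 and 11.5 to 46.0), T cells (3.11 to 11.4 and 3.56 to 10.8) and myeloid cells (2.55 to 10.1 and 6.69 to 39.0). Of these lists, 3 of 7 tested reticular cell markers rose, as did 2 of 4 for pericytes and 1 of 4 for high endothelial venules. For myeloid cells 1 of 3 rose, for B cells 1 of 5 and for T cells 0 of 5. None of the markers in these lists fell. Over all tested genes 18.3% rose and 15.8% fell, so a single marker that rose in so short a list is no result about it. In such bulk samples, fewer cells of a type and less RNA per cell cannot be told apart.

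**Figure D1:**
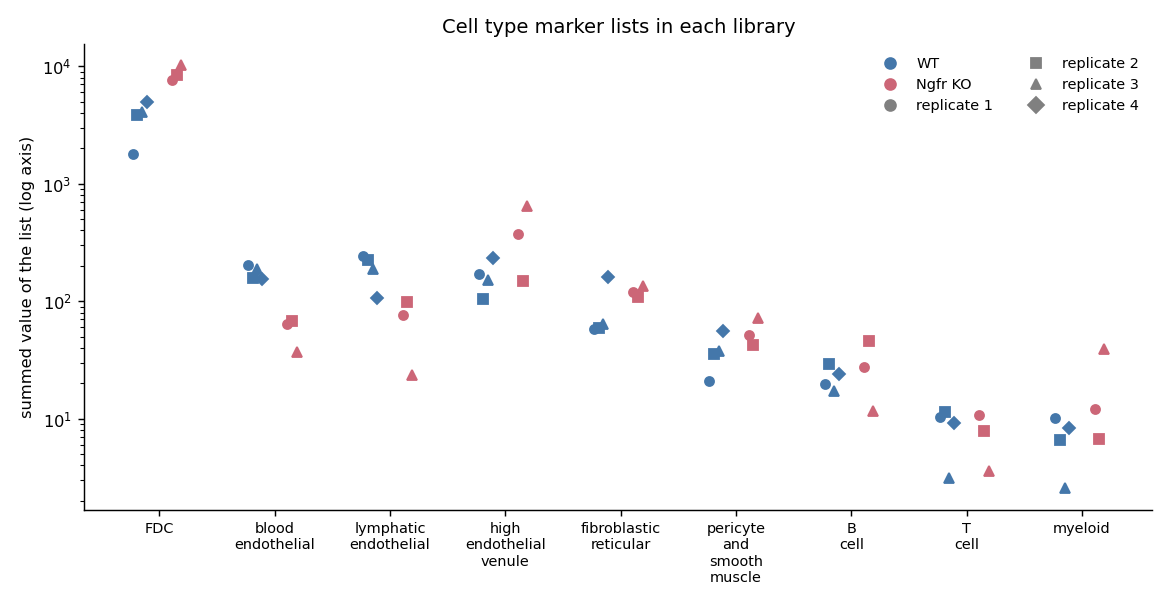
Summed TMM-scaled value of each cell type marker list (log axis) in the 4 WT and 3 Ngfr KO libraries, 1 symbol per library. FDC sums are higher and blood and lymphatic endothelial sums lower in every Ngfr KO library than in every WT library, and the other lists overlap.

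Loss of Ngfr went with higher transcript levels of 7 of the 10 genes and a lower level of 1, the S1P exporter gene Spns2. Both LPA-degrading phosphatase genes and the autotaxin gene rose to more than 2 times the WT mean, and so did Sphk1 and Cyp7b1. S1pr1 and Ch25h did not pass the test. All 10 genes reached 1 in 3 or more samples and were tested with limma on log2(value + 1), with Benjamini-Hochberg adjustment over 8326 genes and an adjusted p under 0.05 counted as a call. The same test called 18.3% of all genes higher and 15.8% lower, or 34.2% in either direction. The groups of the 7 raised genes and of Spns2 did not overlap, which was the case for 40.9% of all tested genes, 22.6% higher and 18.3% lower. The median log2 change of the 10 genes was 0.78, against 0.02 over all tested genes. The 10 genes were picked with earlier results of these data in view, so these shares are given as a description.

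**Figure D2:**
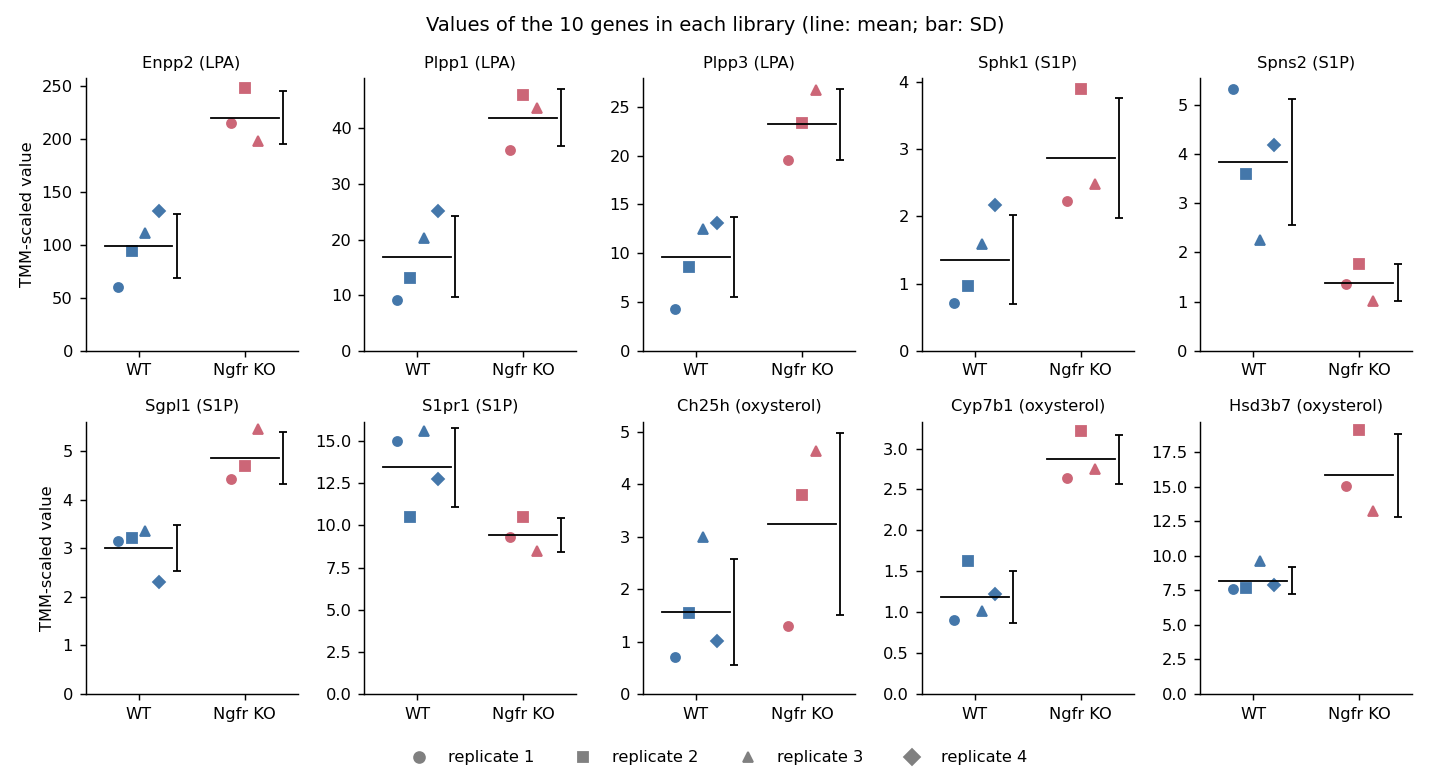
TMM-scaled value of each of the 10 genes (linear axes from 0) in every WT (blue) and Ngfr KO (red) library, with the mean (line) and SD (bar) of each group. The genotypes overlap for S1pr1 and Ch25h and are apart for the other 8 genes.

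Sequences just before the RefSeq start are shown for Plpp3, Sgpl1 and Hsd3b7, raised genes of each of the 3 systems, to compare their promoters. Each is the 250 bases up to the start in the gene's direction on GRCm38.p6: chr4:105157097-105157346 on the plus strand, chr10:61147685-61147934 on the minus strand and chr7:127800359-127800608 on the plus strand. Capitals mark matches, on either strand, to CACCC (the core bound by Krüppel-like factors) or to GGGCGG (the GC box).
Plpp3: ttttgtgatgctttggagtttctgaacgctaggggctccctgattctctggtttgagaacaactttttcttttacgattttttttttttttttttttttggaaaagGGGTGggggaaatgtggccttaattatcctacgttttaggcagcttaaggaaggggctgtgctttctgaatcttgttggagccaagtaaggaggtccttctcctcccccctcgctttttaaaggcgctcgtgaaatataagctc
Sgpl1: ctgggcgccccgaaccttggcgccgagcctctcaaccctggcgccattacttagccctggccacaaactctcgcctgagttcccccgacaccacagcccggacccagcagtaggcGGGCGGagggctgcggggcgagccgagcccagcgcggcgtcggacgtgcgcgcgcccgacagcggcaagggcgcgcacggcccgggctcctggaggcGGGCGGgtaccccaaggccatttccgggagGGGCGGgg
Hsd3b7: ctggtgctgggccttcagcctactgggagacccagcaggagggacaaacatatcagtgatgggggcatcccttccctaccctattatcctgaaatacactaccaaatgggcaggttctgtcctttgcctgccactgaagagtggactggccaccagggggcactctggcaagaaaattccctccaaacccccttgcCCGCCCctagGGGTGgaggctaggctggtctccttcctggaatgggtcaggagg
The promoters did not look alike. GC content was 42.4% for Plpp3, 74.8% for Sgpl1 and 58.0% for Hsd3b7, with a median of 52.4% over 32851 such windows. Plpp3 held 1 CACCC match, Sgpl1 held 3 GC boxes, and Hsd3b7 held 1 of each, with no overlap between the motifs. Of all windows, 52.0% held CACCC and 32.7% held the GC box. The TATA box searched as TATAAA, present in 12.4% of windows, was in none of the 3, and the NF-κB consensus, present in 7.25%, had 1 match in Hsd3b7.

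Enpp2 (ENSMUSG00000022425, GRCm38 chromosome 15, 54838901 to 54952892, minus strand) had the highest mean per exon length of the 10 genes in both genotypes. Its value was 60.2, 94.3, 111 and 132 in WT replicates 1 to 4, and 215, 248 and 198 in Ngfr KO replicates 1 to 3. Every Ngfr KO library lay above every WT library, and the lowest value of all was that of WT replicate 1. The mean went from 99.3 ± 30.2 (SD, n = 4) to 220 ± 25 (SD, n = 3), a ratio of 2.22. On the log2(value + 1) scale the change was 1.19 (standard error 0.28, adjusted p = 0.00709 by limma). edgeR on the recovered reads, whose quasi-likelihood test called 8.67% of 16751 genes higher and 6.55% lower, gave a log2 change of 1.22 (adjusted p = 0.0143).

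The phosphatase gene Plpp1 (ENSMUSG00000021759, chromosome 13, 112800792 to 112867894, plus strand) had values of 9.07, 13.1, 20.4 and 25.2 in WT and of 36.2, 46.0 and 43.8 in Ngfr KO. WT libraries were spread widely, with replicate 1 lowest, and all of them stayed below the Ngfr KO libraries. The log2 change was 1.35 (standard error 0.29, adjusted p = 0.00467 by limma). Of the exon bases of Plpp1, 25.8% are shared with Mtrex on the opposite strand, listed in the table as Skiv2l2. Without strand information such reads cannot be assigned, and Skiv2l2 itself had a log2 change of -0.08 (limma adjusted p = 0.743).

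Plpp3 (ENSMUSG00000028517, chromosome 4, 105157347 to 105232764, plus strand), the paralog of Plpp1, showed 4.27, 8.56, 12.5 and 13.1 in WT against 19.5, 23.4 and 26.7 in Ngfr KO. Here too WT replicate 1 was lowest and no values overlapped. A log2 change of 1.28 (standard error 0.30, adjusted p = 0.00735 by limma) corresponded to a ratio of means of 2.41. Tested without a filter on low values, Plpp3 was not called (limma adjusted p = 0.0515).

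The making and the breakdown side of LPA therefore both had higher transcript levels in the Ngfr KO samples. The LPA genes and the FDC markers were both higher in Ngfr KO. In WT, both were lowest in replicate 1, where the FDC sum was 1773, against at least 3869 in the other WT libraries. That was not particular to the LPA genes, since 7 of the 10 genes were lowest in WT replicate 1. Within Ngfr KO the LPA genes and the FDC sum did not keep 1 order. FDC sums were 7671, 8434 and 10217 in replicates 1 to 3, and in replicate 3 Enpp2 was lowest and Plpp3 highest. The part of cell composition in these changes was not tested. Leaving out WT replicate 1 gave log2 changes of 0.97 for Enpp2, 1.10 for Plpp1 and 0.97 for Plpp3, with limma adjusted p-values of 0.0168, 0.00845 and 0.00787.

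Of the S1P genes, the kinase gene Sphk1 (ENSMUSG00000061878, chromosome 11, 116530925 to 116536674, plus strand) had the lowest mean per exon length of the 10 in WT. WT libraries had 0.708, 0.958, 1.59 and 2.17, and Ngfr KO libraries 2.24, 3.90 and 2.48. The highest WT value lay just under the lowest Ngfr KO value. Only 2 WT libraries reached 1, so Sphk1 passed the filter with Ngfr KO libraries counted. The log2 change was 0.73 (standard error 0.22, adjusted p = 0.0251 by limma). That call was lost with edgeR (log2 change 1.16, adjusted p = 0.0653), without a filter, and when WT replicate 1, WT replicate 2 or Ngfr KO replicate 2 was left out (limma adjusted p = 0.0676, 0.0670 and 0.119).

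Spns2 (ENSMUSG00000040447, chromosome 11, 72451638 to 72489904, minus strand), which encodes the S1P exporter through which lymphatic endothelium supplies lymph, was the single gene of the 10 that fell. Its values were 5.33, 3.59, 2.25 and 4.20 in WT and 1.36, 1.77 and 1.02 in Ngfr KO. WT replicate 3 was the WT library nearest to the Ngfr KO range. The mean fell from 3.84 ± 1.28 (SD, n = 4) to 1.38 ± 0.38 (SD, n = 3), a log2 change of -0.99 (standard error 0.21, adjusted p = 0.00497 by limma). edgeR gave -1.39 (adjusted p = 0.0183), and every alternative that tested Spns2 called it lower.

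Sgpl1 (ENSMUSG00000020097, chromosome 10, 61098642 to 61147703, minus strand), the gene of the lyase that ends S1P, had 3.14, 3.22, 3.35 and 2.30 in WT and 4.42, 4.70 and 5.45 in Ngfr KO. WT libraries were close together apart from replicate 4, and all Ngfr KO libraries were above them. The rise was the smallest of the 7, with a log2 change of 0.55 (standard error 0.16, adjusted p = 0.0191 by limma). Without Ngfr KO replicate 2 or 3 the call was narrowly missed (limma adjusted p = 0.0501 and 0.0534).

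The receptor gene S1pr1 (ENSMUSG00000045092, chromosome 3, 115710433 to 115715072, minus strand) had values of 15.0, 10.5, 15.6 and 12.7 in WT and of 9.32, 10.5 and 8.49 in Ngfr KO. WT replicate 2 and Ngfr KO replicate 2 met in the middle, and the other libraries kept to their sides. The log2 change was -0.46 (95% interval -0.85 to -0.07, limma adjusted p = 0.0636), so a change of this size was not separated from the spread between replicates after adjustment. With quantile normalization S1pr1 was called lower (-0.59, adjusted p = 0.0204).

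S1pr1 and Spns2 are both known from endothelial cells. Blood and lymphatic endothelial markers moved in the same direction, but those of high endothelial venules did not. Of 4 tested markers of these venules 1 rose and none fell, beside 18.3% and 15.8% of all tested genes. The pan-endothelial junction gene Cdh5 had a mean of 18.1 in WT and 5.49 in Ngfr KO, a log2 change of -1.55 (limma adjusted p = 6.76e-04). Prox1, the regulator that defines lymphatic endothelium, had means of 23.7 and 6.32, a log2 change of -1.72 (limma adjusted p = 3.20e-04). The blood endothelial marker Sox17 was at or near 0, with a highest value of 0.176. The part of endothelial transcripts in the values of Spns2 and S1pr1 was not tested.

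**Figure D3:**
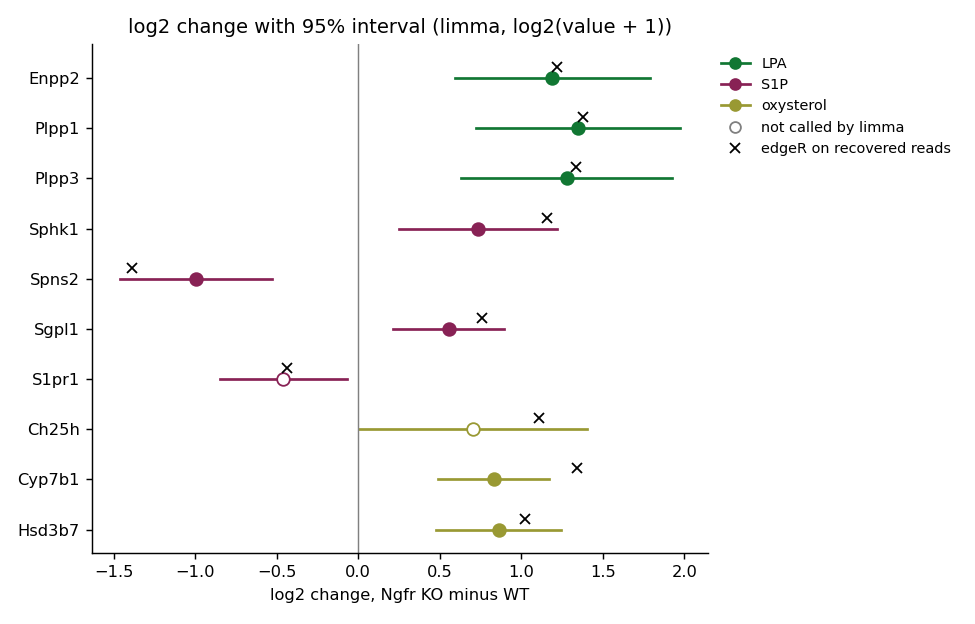
Log2 change (Ngfr KO minus WT) of each gene by limma on log2(value + 1) with its 95% interval (circles and lines, coloured by pathway), and by edgeR on recovered reads (crosses). Filled circles are called genes: 7 lie right of 0, Spns2 lies left of it, and S1pr1 and Ch25h are open.

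The oxysterol gene Ch25h (ENSMUSG00000050370, chromosome 19, 34473778 to 34475164, minus strand), which adds the first hydroxyl group to cholesterol, had the largest spread relative to its mean in both genotypes. Values were 0.700, 1.55, 2.99 and 1.01 in WT and 1.30, 3.80 and 4.63 in Ngfr KO. Ngfr KO replicate 1 lay among the WT values and WT replicate 3 above it. The log2 change was 0.70 (95% interval 0.01 to 1.40, limma adjusted p = 0.104). Without WT replicate 3 or without Ngfr KO replicate 1 the gene was called higher, with log2 changes of 0.94 and 1.10 (limma adjusted p = 0.0356 and 0.0184).

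Cyp7b1 (ENSMUSG00000039519, chromosome 3, 18071950 to 18243338, minus strand), which carries out the next step, had 0.899, 1.62, 1.01 and 1.22 in WT and 2.64, 3.21 and 2.75 in Ngfr KO. The 2 groups were tight and well apart. The ratio of means was 2.41 and the log2 change 0.83 (standard error 0.16, adjusted p = 0.00252 by limma). Because the pseudocount of 1 is close to the WT values, the edgeR log2 change on reads was larger, at 1.34 (adjusted p = 0.00904).

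Hsd3b7 (ENSMUSG00000042289, chromosome 7, 127800604 to 127803802, plus strand), whose product degrades the GPR183 ligand, showed 7.62, 7.64, 9.64 and 7.89 in WT and 15.1, 19.1 and 13.3 in Ngfr KO. WT libraries were nearly alike except for the higher replicate 3, and all Ngfr KO libraries were above it. The log2 change was 0.86 (standard error 0.18, adjusted p = 0.00371 by limma). Annotated neighbours make its reads uncertain: 62.0% of its exon bases are shared with Gm49388 on the same strand, which was not analysed here, and 62.4% with 9430064I24Rik on the opposite strand, whose values were at most 0.0961.

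Of the 2 genes for making the GPR183 ligand, Cyp7b1 was called higher and Ch25h was not. The degrading gene Hsd3b7 was called higher, with the limit that its reads are uncertain. The exact two-sided permutation test over all 35 assignments of genotype gave p = 0.0286, the smallest value possible, for Enpp2, Plpp3, Sgpl1, Cyp7b1 and Hsd3b7. The exact p was 0.0571 for Plpp1, Sphk1 and Spns2, 0.0857 for S1pr1 and 0.171 for Ch25h.

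**Figure D4:**
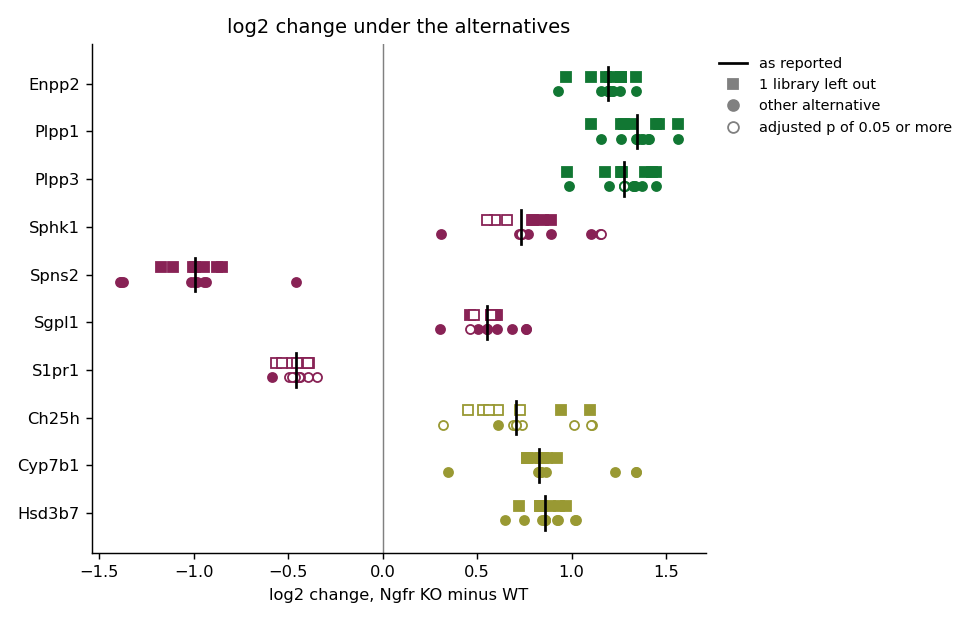
Log2 change (Ngfr KO minus WT) of each gene as reported (black line), with 1 library left out (squares) and under the other alternatives (circles), filled where the adjusted p was under 0.05. No gene changed sign, and Plpp3, Sphk1, Sgpl1, S1pr1 and Ch25h have both filled and open symbols.

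Levels were compared between genes per kilobase of annotated exon. In WT the order was Enpp2 (17.2 ± 5.2 per kilobase, SD, n = 4), Plpp1 (9.68 ± 4.13), S1pr1 (4.42 ± 0.77), Plpp3 (3.04 ± 1.30), Hsd3b7 (2.96 ± 0.35), Ch25h (1.13 ± 0.73), Spns2 (0.941 ± 0.314), Cyp7b1 (0.548 ± 0.148), Sgpl1 (0.489 ± 0.077) and Sphk1 (0.284 ± 0.138). Plpp3 and Hsd3b7 did not differ beyond their spread, with each ahead in 2 of 4 libraries, and the same held for Ch25h and Spns2 and for Cyp7b1 and Sgpl1. Enpp2 exceeded 96.9% of 8319 tested genes with a known exon length, and Sphk1 23.8%. In Ngfr KO, Enpp2 (38.1 ± 4.4 per kilobase, SD, n = 3) and Plpp1 (24.0 ± 2.9) still led, in every library. S1pr1 ranked above Plpp3 and Hsd3b7 in WT, and in Ngfr KO, at 3.10 ± 0.33, it ranked below Plpp3 (7.34 ± 1.14) and Hsd3b7 (5.71 ± 1.08). Spns2 came last there, at 0.339 ± 0.092.

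The genes most like a member over the 7 libraries were found by the root mean square difference of log2(value + 1), each gene centred on its own mean, among 8325 other tested genes. For Enpp2 they were Azin2 (0.05), Rnf5 (0.10) and Colec12 (0.11). The pseudocount shrinks the changes of low genes, so a low gene can match a high one with a smaller fold change. Azin2 had values of 0.697 to 5.14, and Enpp2 of 60.2 to 248. The smallest differences from S1pr1 were those of Bcar1 (0.06), Slc25a24 (0.06) and Ulk2 (0.08). Serinc1 (0.02), Ap2m1 (0.05) and Napa (0.07) were closest to Hsd3b7.

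Further genes of these pathways were taken from a fixed list of 82, of which 74 were in the table and 48 were tested. Of the 48, 16 rose, 9 fell and 23 were not called, with a median log2 change of 0.16. Over all tested genes 18.3% rose and 15.8% fell, and the share of listed genes that fell was close to that. Of 10 tested genes listed under LPA metabolism, 6 rose and none fell. The list also holds genes of other lysophospholipids, so the count is not one of LPA alone. The largest rise was in Pla1a, which encodes a phosphatidylserine-specific phospholipase that makes lysophosphatidylserine. Pla1a went from 0.384 ± 0.194 (SD, n = 4) to 4.18 ± 1.41 (SD, n = 3), a log2 change of 1.88 (standard error 0.20, adjusted p = 2.24e-04 by limma) and of 3.52 with edgeR. It stayed below 1 in every WT library and passed the filter through Ngfr KO alone, so its limma call is no separate support for a rise. Lpcat4, a lysophospholipid acyltransferase gene, rose from 0.869 ± 0.610 to 5.20 ± 2.56, a log2 change of 1.71 (limma adjusted p = 0.00141). Plpp2, another phosphatase paralog, rose from 0.973 ± 0.267 to 3.41 ± 0.78, a log2 change of 1.16 (limma adjusted p = 7.71e-04). Lpcat4, Plpp2 and Agpat2, which are among the 6, also passed the filter only with Ngfr KO libraries counted. The count of genes of this list that rose is therefore a description.

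Of 3 tested LPA receptor genes 2 rose, Lpar1 and Lpar3, and none fell, beside 18.3% and 15.8% of all tested genes. Lpar1 had 3.41, 7.71, 9.50 and 10.3 in WT and 17.5, 14.9 and 17.4 in Ngfr KO, with WT replicate 1 lowest, and a log2 change of 1.10 (limma adjusted p = 0.0111). Without a filter that call was lost (limma adjusted p = 0.0633). Lpar3 had 0.397, 2.26, 2.63 and 2.87 in WT and 4.77, 6.92 and 3.51 in Ngfr KO, a log2 change of 1.06 (limma adjusted p = 0.0233). edgeR did not call Lpar3 (adjusted p = 0.0976), and neither did limma without a filter or without Ngfr KO replicate 1 or 2 (adjusted p = 0.110, 0.0512 and 0.106). Lpar6, a further receptor gene, had overlapping groups and a log2 change of -0.12 (limma adjusted p = 0.659). Lpar4 reached at most 0.168 in any library and was not tested, and Lpar2 and Lpar5 were not analysed here.

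The S1P receptor genes S1pr2 and S1pr3 rose, unlike S1pr1. S1pr3 had values of 8.00, 23.7, 16.7 and 24.3 in WT and of 42.5, 67.0 and 54.1 in Ngfr KO, with no overlap. The log2 change was 1.62 (standard error 0.32, adjusted p = 0.00333 by limma). Per kilobase, S1pr3 was at 4.07 in WT, near the 4.42 of S1pr1, and at 12.2 in Ngfr KO, above the 3.10 of S1pr1. S1pr2, whose product confines germinal centre B cells, rose from 0.993 ± 0.521 (SD, n = 4) to 2.27 ± 0.66 (SD, n = 3), a log2 change of 0.73 (limma adjusted p = 0.0192). The S1pr2 call was lost with edgeR (adjusted p = 0.0555), without a filter, and without WT replicate 1 or Ngfr KO replicate 2 (limma adjusted p = 0.0532 and 0.0924). S1pr2 also passed the filter only with Ngfr KO libraries counted. S1pr4, a receptor of blood cells, reached at most 0.267 and was not tested, and S1pr5 was not analysed here.

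Of the listed S1P metabolism and transport genes 2 of 13 tested rose and 4 fell, and of the receptor and effector genes 2 of 8 rose and 3 fell, beside 18.3% and 15.8% of all tested genes. Klf2 encodes a transcription factor known to activate S1pr1 in lymphocytes and abundant in endothelium. It fell furthest of the listed genes, from 15.8 ± 4.7 (SD, n = 4) to 1.35 ± 0.49 (SD, n = 3), a log2 change of -2.81 (limma adjusted p = 4.34e-05). The ceramidase genes Acer2 and Asah2, whose products release sphingosine, fell by 1.05 and 0.84 on the log2 scale (limma adjusted p = 0.00679 and 0.00446). Abca1, a cholesterol and phospholipid exporter gene, fell from 19.7 ± 4.6 to 11.1 ± 0.66, a log2 change of -0.75 (limma adjusted p = 0.0126). Acer2 was not called without a filter (limma adjusted p = 0.0512). Acer2, Asah2 and the effector gene Grk2, which also fell, were below 1 in every Ngfr KO library and passed the filter through WT alone. Klf2 passed it only with WT libraries counted, with a value of 0.987 in Ngfr KO replicate 1. The counts of S1P genes that fell are therefore a description.

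Of the listed oxysterol genes, 1 of 3 metabolic genes and 2 of 10 sensing genes rose, and 2 sensing genes fell, close to the 18.3% and 15.8% of all tested genes. Gpr183, the receptor gene for the ligand that Ch25h and Cyp7b1 make, had 1.05, 2.38, 2.26 and 3.53 in WT and 1.16, 1.73 and 0.452 in Ngfr KO. WT replicate 1 lay within the Ngfr KO range, and the log2 change was -0.64 (standard error 0.26, adjusted p = 0.0775 by limma). Without WT replicate 1 it was called lower, at -0.85 (limma adjusted p = 0.0218). Gpr183 is best known from lymphocytes and myeloid cells, and the part of such cells in these low values was not tested.

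Cyp51, a gene of cholesterol synthesis, rose from 3.51 ± 1.70 (SD, n = 4) to 9.12 ± 1.33 (SD, n = 3), a log2 change of 1.23 (limma adjusted p = 0.00375). Mylip, which encodes a ubiquitin ligase for the LDL receptor, fell by 1.35 on the log2 scale (limma adjusted p = 0.00777), with WT values spread from 1.70 to 6.58. Mylip was not called without a filter (limma adjusted p = 0.0606). Osbpl5, a gene of lipid transfer at membrane contacts, fell by 0.89 (limma adjusted p = 0.00747). Mylip and Osbpl5 passed the filter only with WT libraries counted. The count of sensing genes that fell is therefore a description. Ggt5 encodes a glutamyl transferase that breaks down a glutathione conjugate known to hold human B cells in germinal centres through P2RY8. It rose from 1.38 ± 0.52 (SD, n = 4) to 4.70 ± 1.00 (SD, n = 3), a log2 change of 1.28 (limma adjusted p = 0.00129).

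**Figure D5:**
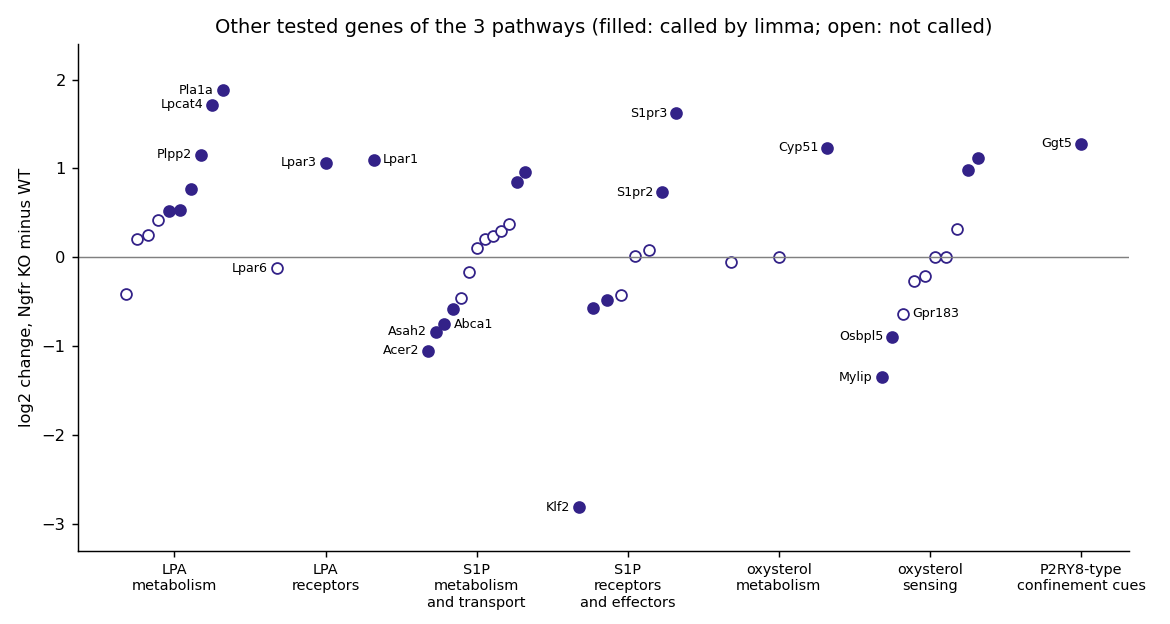
Log2 change (Ngfr KO minus WT, limma on log2(value + 1)) of the 48 other tested pathway genes by list, filled where called. Genes of the LPA lists, which include genes of other lysophospholipids, lie mostly above 0. The S1P and oxysterol lists hold genes on both sides, with Klf2 lowest.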

How the data were processed

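RNA of sorted cells was amplified with SMART-Seq v4 and made into libraries with Nextera XT, per the labels' protocols. The submitters' processing notes name bcl2fastq 2.20.0.422 and the build mm10, and the aligner, counter and annotation are not given in the sources used here. The deposited signal values are, by the name the authors gave the table, TMM-normalized gene counts. All values were whole multiples of 1 read per library (tolerance 0.01 reads), which gave back the read counts. The lowest total of a gene over the libraries was 3 reads. A count of 3 reads equals a value of 0.0102 to 0.0130. Of 21176 gene IDs, 21118 matched GENCODE M21 (GRCm38), which gave positions and exon lengths. Promoter windows came from RefSeq (GRCm38.p6). The NF-κB consensus was searched on either strand as GGG, purine, any base, any base, pyrimidine, pyrimidine, CC.

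Values were tested as log2(value + 1) with limma 3.58.1 (R 4.3.3) for genes that reached 1 in 3 or more samples, all 7 samples in one fit without covariates, at a Benjamini-Hochberg adjusted p of 0.05. edgeR 4.0.16 and DESeq2 1.42.0 on recovered reads were alternatives. The fold change on this scale understates that of low genes. The scripts were tested on simulated data. The 10 genes and all lists were chosen with earlier results of these data known. Other pathway genes were named by a fixed rule: the largest called changes in each direction and the receptors of the 3 ligands. With pooled animals, p-values measure the spread between pools.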

Additional observations from a re-analysis of the deposited data

Results flagged for a closer look

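In groups of 4 samples, a library was marked where its gap to the nearest other library exceeded Dixon's 95% critical share of the group's range. Of 28 genes examined in the WT group, 3 had such a library, and chance marks about 1 in 20, or 1.4 here. Hsd3b7 was 9.64 in WT replicate 3 against 7.62 to 7.89 in the other WT libraries (0.864 of the range). Ggt5 was 0.599 in WT replicate 1 against 1.60 to 1.70 (0.907), and Lpar6 was 1.23 in WT replicate 4 against 2.77 to 2.83 (0.958).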

How the results depend on the processing

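Over 18 alternatives, the 10 genes gave 175 values: 162 kept direction and side of the threshold, 13 changed the call and 0 changed sign. Enpp2, Plpp1, Spns2, Cyp7b1 and Hsd3b7 kept their calls wherever they were tested. Of all genes, 2844 were called. With a minimum of 10 in 3 samples, 535 of 1297 were called, with 4 of 5 tested members and 7 of 10 tested pathway genes. Without a filter, 14 of 74 pathway genes were called, against 25 of 48 with it. The share called fell over all genes too, from 2844 of 8326 with the filter to 2126 of 21176 without it. Leaving out 1 library gave 1614 to 3006 called genes, 6 to 9 called members and 17 to 26 pathway genes. The count fell to 1870 without WT replicate 1, 1803 without Ngfr KO replicate 1 and 1614 without Ngfr KO replicate 2. The cause was not tested. Of called genes 53.7% were higher, against 67.1% with the stricter minimum, 49.4% with quantile normalization and 49.1% without Ngfr KO replicate 3. Same-numbered samples did not consistently deviate together. The correlation was 0.298 for number 1, the highest of any WT and Ngfr KO pair, and -0.0593 and -0.0108 for numbers 2 and 3. The replicate block gave 2717 called genes, 8 members and 24 pathway genes, with Sgpl1 no longer called (adjusted p = 0.0577) and Ch25h called (adjusted p = 0.0206), by limma. Genes at values near 1 are limited by the pseudocount: with 5 in place of 1, the log2 change of Cyp7b1 was 0.35.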

Other observations

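The following genes lie outside the naming rule and were chosen after their values were seen. Insig1 and Insig2 encode proteins that hold the sterol sensor SCAP in the endoplasmic reticulum, and both rose. Insig1 went from 2.45 ± 1.09 (SD, n = 4) to 5.55 ± 0.52 (SD, n = 3), a log2 change of 0.98 (limma adjusted p = 0.00821). Insig2 went from 7.62 ± 2.26 to 17.3 ± 0.74, a log2 change of 1.12 (limma adjusted p = 0.00175).

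Sphk2, the other sphingosine kinase gene, was too low for the limma test. Its values were 0.767, 0.621, 0.852 and 0.870 in WT and 0.254, 0.353 and 0.284 in Ngfr KO, without overlap. edgeR gave a log2 change of -1.31 (adjusted p = 0.0310), opposite in sign to Sphk1. The lysosomal ceramidase gene Asah1 rose by 0.96 on the log2 scale (limma adjusted p = 0.00518), while the ceramidase genes Acer2 and Asah2 fell. Cers2, a ceramide synthase gene, rose by 0.85 (limma adjusted p = 0.0125).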
